A study of Mus musculus with 3 samples.

Results

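Twist1 ChIP-seq of E12.5 endocardial cushions (ECCs) gave 1382 peaks that lay close to a gene and had no counterpart in E10.5 limb buds or in peripheral nerve sheath tumor (PNST) cells. These regions were chosen by values in the deposited lists. A peak was taken when its sequence was assigned to a chromosome, when less than 5% of its own length was overlapped by any single limb bud or PNST peak, and when the smaller of its gene distances in the list was at most 5000 bp. They were 1382 of 10653 placed ECC peaks (13.0%), of 10965 ECC peaks in all, and of 67468 peaks in the 3 lists. Being confined to the ECC list and being near a gene are therefore conditions of the choice, not findings.

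The ECC sample was atrioventricular canal endocardial cushion tissue from wild-type FVB/N mouse embryos at E12.5, pooled over several litters. Forelimb buds of FVB/N embryos, pooled at E10.5, made up the limb bud sample, and the PNST sample was a cultured mouse tumor cell line for which the labels also give FVB/N. All samples were precipitated with 5 μg of the same anti-Twist1 antibody, and no transgene, deletion or treatment is given for any of them. For the PNST line this does not mean a wild-type genotype. The study's text says that such mouse tumors can arise from NF1 and p53 mutations, and it does not state the line's own mutations. Each tissue was 1 pooled sample, so no difference between tissues or peak sets could be set against variation between samples, and no test was made. The endocardial cushions hold mesenchyme with endocardium above it, and the dissected tissue may include neighboring myocardium. Because the data are DNA peaks without expression, the labelled tissue could not be checked against its marker genes. The library was 5702220 tags for ECCs, of which 3149934 remained after duplicates were removed. By the file headers, the limb bud and PNST libraries were 4.73 and 3.75 times as deep after the same filter. Fragment lengths estimated by the peak caller were 63 bp for ECCs, 48 bp for limb buds and 52 bp for PNST cells. These were close to the 50 bp of a read and shorter than the sheared size that the methods give. The limb bud list used here had 47664 placed peaks. For limb buds the study's text gives far fewer reads and peaks than this file holds, and by its text the limb bud library was not the deeper one. The ECC only set rests on the limb bud list as deposited.

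Endocardial cushions are the precursors of the heart valves. Endocardial cells above the myocardium of the canal undergo an epithelial-to-mesenchymal transition, guided by TGF-beta, BMP, Notch and Wnt signals, and the resulting mesenchyme divides, migrates and lays down the matrix from which the leaflets form. This mesenchyme expresses the bHLH factor Twist1, which is known for promoting its proliferation and migration, and bHLH dimers bind the E-box (5’-CANNTG-3’).

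The sequences of 4 of these peaks beside genes of valve pathways are printed as examples. All 4 hold an E-box, whereas 53.3% of the whole set did, so they do not stand for the set. The sequences were taken from the mm9 genome on the plus strand, with each E-box in capitals. They lie in introns of Notch3, a Notch receptor of mural cells (chr17:32298610-32298702), Gsk3b, a kinase that marks beta-catenin for degradation (chr16:38232248-38232405), Sema3c, a semaphorin of outflow tract development (chr5:17188330-17188506), and Kit, a receptor tyrosine kinase (chr5:76040556-76040778).
Notch3: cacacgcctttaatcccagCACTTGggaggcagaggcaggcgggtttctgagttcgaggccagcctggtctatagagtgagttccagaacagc
Gsk3b: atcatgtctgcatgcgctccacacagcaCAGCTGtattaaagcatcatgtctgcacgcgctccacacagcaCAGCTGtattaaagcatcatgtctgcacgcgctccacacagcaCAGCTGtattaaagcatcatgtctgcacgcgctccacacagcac
Sema3c: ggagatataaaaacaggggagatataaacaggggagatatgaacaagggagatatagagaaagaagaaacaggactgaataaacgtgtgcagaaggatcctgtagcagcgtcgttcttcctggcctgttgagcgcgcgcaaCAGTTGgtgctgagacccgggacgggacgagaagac
Kit: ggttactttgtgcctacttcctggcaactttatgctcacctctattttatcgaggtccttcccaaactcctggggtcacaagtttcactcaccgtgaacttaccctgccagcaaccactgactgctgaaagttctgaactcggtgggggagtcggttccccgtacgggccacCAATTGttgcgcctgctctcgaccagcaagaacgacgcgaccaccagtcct
Each peak held few E-boxes, and in Gsk3b the 3 copies stand in 3 copies of the same repeated unit, as the letters show.

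Peaks with the lowest p-values often held a short unit repeated head to tail. The peaks of 3 genes are printed with 1 copy of the unit in capitals, as found by an exact search. They lie in introns of Fstl1, a secreted BMP antagonist (chr16:37781653-37781947), Col6a6, a chain of collagen VI (chr9:105608944-105609143), and Itih5, a hyaluronan-binding matrix protein (chr2:10109343-10109538). The Itih5 peak was chosen after its values were seen.
Fstl1: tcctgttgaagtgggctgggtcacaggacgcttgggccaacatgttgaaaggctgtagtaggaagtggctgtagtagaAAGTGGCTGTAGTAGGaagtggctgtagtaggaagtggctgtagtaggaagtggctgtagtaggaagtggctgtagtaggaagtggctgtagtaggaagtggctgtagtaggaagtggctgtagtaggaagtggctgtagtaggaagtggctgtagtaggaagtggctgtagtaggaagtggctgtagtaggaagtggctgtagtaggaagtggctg
Col6a6: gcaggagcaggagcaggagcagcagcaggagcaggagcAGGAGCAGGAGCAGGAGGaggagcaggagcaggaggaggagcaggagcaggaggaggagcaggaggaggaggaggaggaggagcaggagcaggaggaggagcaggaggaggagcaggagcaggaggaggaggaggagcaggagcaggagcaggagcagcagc
Itih5: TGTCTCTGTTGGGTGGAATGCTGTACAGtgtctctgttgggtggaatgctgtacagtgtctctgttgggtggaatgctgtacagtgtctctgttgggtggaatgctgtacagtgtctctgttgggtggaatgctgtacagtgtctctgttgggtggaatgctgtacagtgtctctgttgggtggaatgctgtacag
The unit was 16 bases in Fstl1 over a stretch of 217 bases, 18 bases in Col6a6 over 65 bases, and 28 bases in Itih5 over all 196 bases of the peak. None of these 3 peaks held an E-box.

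The peaks were small. The list gives for each peak the tags, the reads counted in it after at most 1 was kept at each position, and 719 of the 1382 peaks (52.0%) had 5 tags, the fewest of any ECC peak. The median was 5 tags, with a 95% order-statistic interval of 5 to 6, and the quartiles were 5 and 7. A count of 5 has an exact 95% Poisson interval of 1.62 to 11.7, so most of these peaks could not be ranked by tags. At least 10 tags were counted in 129 peaks (9.33%, 95% Wilson interval 7.91 to 11.0) and at least 20 in 20 peaks. The median length was 172 bp (170 to 174), with a range of 72 to 1278 bp. The median fold enrichment, which divides the tags over the summit by a background that the peak caller takes from the surroundings, was 28.2 (28.01 to 28.2) with a range of 4.12 to 79.37.

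The 5727 ECC only peaks farther from genes had a median of 6 tags, a length of 176 bp (174 to 177) and a fold enrichment of 25.6 (25.4 to 26.46). The 733 near-gene peaks shared with limb buds or PNST cells had a median of 7 tags, and 34.5% of them (31.2 to 38.0) had at least 10 tags. Intervals for medians and shares cover counting error only, and since peaks of 1 sample are not replicates they do not say how a second ECC sample would vary.

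**Figure D1:**
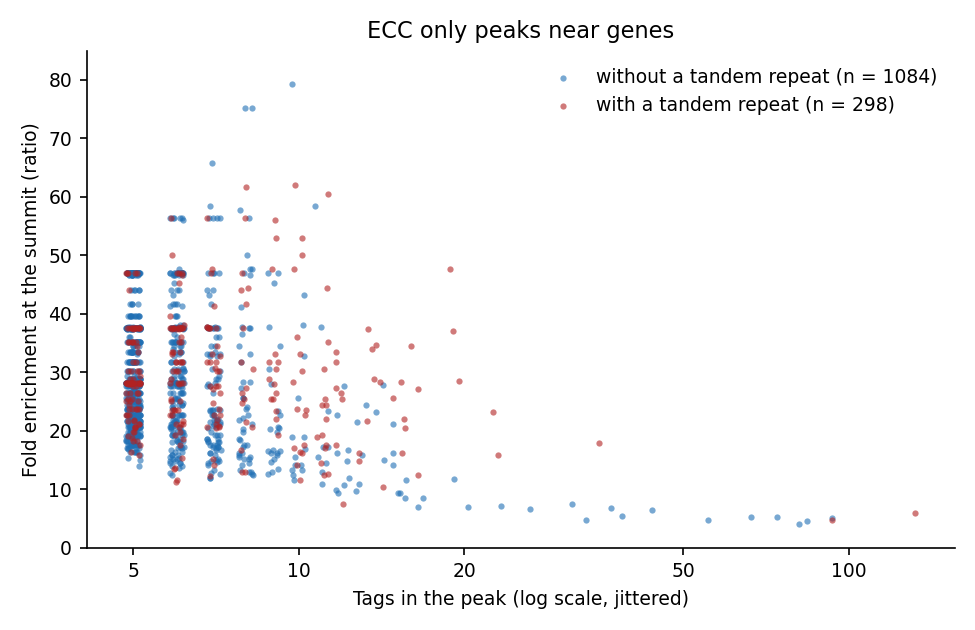
Tags per peak (x axis, log scale, jittered) against fold enrichment at the summit (y axis, ratio) for each of the 1382 ECC only peaks near genes. Peaks with a tandem repeat (298, red) and without one (1084, blue) are shown; the peaks with the most tags have fold enrichments near 5, and the highest fold enrichments belong to peaks of 7 to 11 tags.

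The peaks with the most tags lay beside small RNA genes and Sfi1, at low fold enrichment. A pair of peaks beside Rn4.5s, which encodes a small RNA, held 133 and 91 tags at fold enrichments of 6.04 and 4.7. The 5 peaks beside Snord116l1, of the small nucleolar RNA cluster of the imprinted Snrpn region, held 55 to 93 tags at 4.12 to 5.22. Sfi1, a centrosomal protein, held 4 peaks of 31 to 75 tags at 4.76 to 7.56, and 6820431F20Rik had a peak of 45 tags at 6.52. Only 3.91% of the 50-base words of the largest Rn4.5s peak occurred once in mm9, whereas in the 4 Sfi1 peaks the share was 96.3% to 100%. The number of Sfi1 copies in the FVB/N strain was not tested.

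The highest fold enrichments belonged to small peaks. Sult3a1, a sulfotransferase, led with 79.37 at 10 tags. Arih1, a ubiquitin ligase, and Csmd3, a transmembrane protein, followed at 75.2 with 8 tags each, then Vps13b, a lipid transfer protein of the Golgi, at 65.8 with 7 tags and Zfyve26, a protein of endosomes and lysosomes, at 62.11 with 10 tags. Impact, a regulator of translation, stood at 61.73 and Ablim3, an actin-binding protein, at 60.47. Gm8580 and Mir694 had 58.48, the latter peak lying within an intron near Ccbe1, a secreted factor of lymphatic growth, and a peak beside the olfactory receptor gene Olfr172 had 57.72. These 10 peaks all had 7 to 11 tags. In 3 of them, those of Zfyve26, Impact and Ablim3, an exact tandem repeat was found.

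The gene distances of the list were not distances to a start site. In 66.3% of the entries for the gene at lower coordinates and 85.1% of those for the gene at higher coordinates, the distance counted from the start of the peak ended within 1 bp of the lower-coordinate end of an annotated exon. The median of the smaller distance was 1584 bp and the quartiles were 697 and 2956 bp. Both listed genes were the same for 1024 peaks (74.1%). Measured instead to the start of a protein-coding transcript, the summit lay within 5000 bp in 471 peaks (34.1%) and within 1000 bp in 103 (7.45%), and the median distance was 11640 bp. Of the 103 summits within 1000 bp of a start, 36 were upstream and 67 downstream.

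Most summits were intronic. An intron of a protein-coding transcript held 915 summits (66.2%, interval 63.7 to 68.7), an exon 109 (7.89%), the 1000 bp upstream of a start 35 (2.53%), and 323 (23.4%) were intergenic. The near-gene peaks shared with another tissue were distributed alike, with 64.5% (61.0 to 67.9) in introns. Of the ECC only peaks farther from genes, 18.0% were in introns, but the distance rule sets this contrast because it counts from exons. Among the 1346 peaks whose nearest listed gene was found in the annotation, 914 were in an intron of that gene, and intron 1 held 138 of them. The share of ECC only peaks that met the distance rule ran from 9.78% on the X chromosome (58 peaks) to 28.9% on chromosome 19 (37 peaks).

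**Figure D2:**
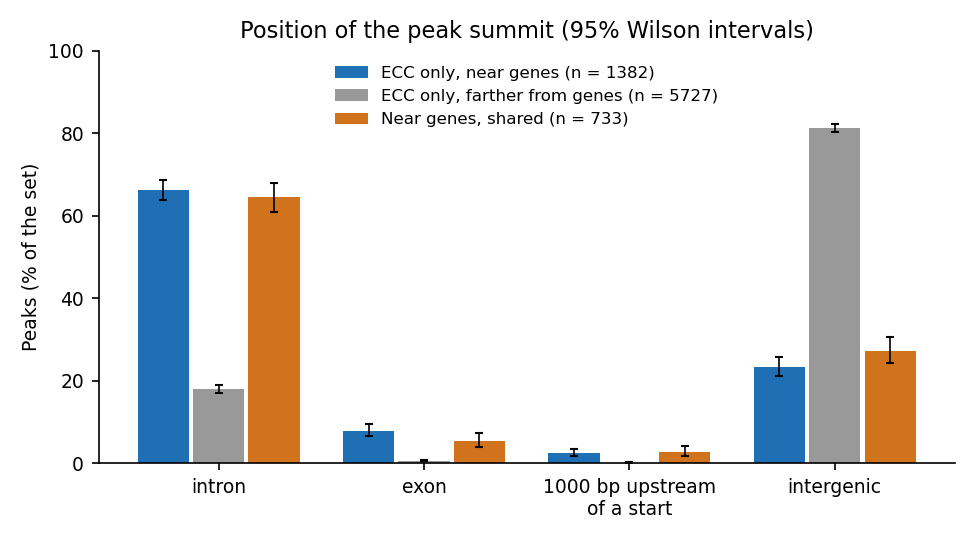
Share of peaks (y axis, %) whose summit lies in an intron, an exon, the 1000 bp upstream of a start, or intergenic sequence, for ECC only peaks near genes (1382), ECC only peaks farther from genes (5727) and near-gene shared peaks (733). Error bars are 95% Wilson intervals. Introns hold 66.2% of the ECC only peaks near genes and 64.5% of the near-gene shared peaks.

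The 10 summits nearest a protein-coding start were within 90 bp of it. They included Gbp6, an interferon-induced GTPase, with a summit 9 bp downstream and 5 tags, and Gtdc1, a glycosyltransferase-like gene that has Zeb2 as the listed gene on its other side, with a summit 13 bp downstream, 7 tags and a fold enrichment of 56.4. Zeb2 is a repressor of E-cadherin in epithelial-to-mesenchymal transition, but its listed distance from this peak was 121503 bp. Smarca5, an ATPase of chromatin remodeling, had a summit 34 bp upstream of its start with 5 tags. Fyco1, an adaptor for vesicle transport, had one 31 bp upstream with 5 tags, and Sdf4, a calcium-binding Golgi protein, one 90 bp upstream with 7 tags. The rest lay beside Hist1h2an, a histone gene, Gm11595, Gm13139, Gm13157 and Gm13283.

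The peaks named 1284 genes within 5000 bp, which is 8.78% of the 14619 gene names in the 3 lists. A single peak was near 1181 of these genes, 2 peaks near 87, 3 near 11 and at least 4 near 5. Besides Snord116l1 with 5 and Sfi1 with 4, the last group was Syne1, a nuclear envelope protein tied to the cytoskeleton, St3gal5, the GM3 ganglioside synthase, and Gm10058, with 4 each. The 4 Syne1 peaks had 5, 8, 15 and 5 tags, all in introns 124 to 128, and the peaks of 8 and 15 tags held the same repeat period of 49 bases. The 4 peaks named for Gm10058 had 5 to 7 tags on the X chromosome, and 3 of them had no 50-base word that occurs once in the genome. The genes with a peak were long, with a median span of 42308 bp against 25049 bp over all gene names found in the annotation.

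A peak listed only for ECCs did not mean that its gene had listed peaks only for ECCs. Of the 1284 genes, 629 (49.0%) also had a limb bud peak of any kind within 5000 bp, against 41.5% of all gene names, and 132 (10.3%) had a PNST peak, against 7.61% of all gene names. Neither was listed for 622 genes (48.4%). A limb bud peak lay within 1000 bp of 211 of the 1382 ECC only peaks (15.3%) and within 10000 bp of 549 (39.7%). The limb bud list holds 47664 placed peaks, and the same shares were not counted for other positions in the genome. It is therefore not shown whether limb bud peaks lie closer to ECC only peaks than to other positions. The limb bud list covers more genes than any other list here, and a gene with a long span can hold peaks of both tissues far apart, so these counts describe the lists and not a shared site.

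Genes of the valve lists were named in small numbers. Most lists came from general knowledge of valve precursors, drawn up with earlier results of these data known. Markers of other cells of the tissue and the 8 genes that the study took up for ChIP-qPCR, which are not independent of its peaks, were counted with them. Of the 637 gene names on any of these lists 60 (9.42%) had a peak, against 8.78% over all gene names. In all, 64 peaks were near these 60 genes. Of the transcription factors of valve development, 1 of 60 had a peak (1.67%, interval 0.295 to 8.86). This was Nfatc1, a factor of the endocardium required for valve growth, with 5 tags at a fold enrichment of 16.42 in intron 6 (chr18:80855985-80856132), 48818 bp from the nearest protein-coding start.

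Matrix genes had peaks near 9 of 77 names (11.7%, interval 6.27 to 20.7). Col3a1, the fibrillar collagen III of valve leaflets, had a peak of 7 tags in intron 13, at a fold enrichment of 37.6 and 338 bp from the nearest listed exon (chr1:45386610-45386832). Of its 223 bases, 175 were an exact repeat of 6 bases. Col4a4, a basement membrane collagen, and Col6a6 had 10 tags each, at fold enrichments of 11.54 and 28.34. Nid2, the basement membrane protein nidogen-2, had neighboring peaks of 8 and 7 tags in intron 18, with the same 34-base period. Col24a1 had 6 tags, and Col19a1, Col23a1, Col27a1 and Fbln7, a fibulin, had 5 each. No peak of this set was near any of the 10 markers listed for valve mesenchyme (interval 0 to 27.8%). That interval holds the 8.78% of all gene names.

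Genes of TGF-beta and BMP signaling had peaks near 4 of 53 names (7.55%). Fstl1 had the most tags of any of these peaks, 12, at a fold enrichment of 33.42 in intron 2. Ltbp1, which holds latent TGF-beta in the matrix, had peaks of 6 and 11 tags in intron 2, both with a 25-base period. Bmp1, a protease that processes procollagens, had 7 tags in sequence in which every 50-base word was unique. Fstl5, a follistatin-like protein, had 6. Ligands and receptors of these pathways were on the list but not among the 4.

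Of the Wnt list 3 of 79 names (3.80%) had a peak. These were Gsk3b with 6 tags, Hipk1, a nuclear kinase, with 5, and Invs, the ciliary protein inversin, with 5. Of the Notch list 3 of 29 (10.3%) had one, and among them Notch3 and Adam10, a protease that cleaves Notch, had 5 tags each. The share of unique words was 31.2% in the Notch3 peak and 0% in the Adam10 peak. Of the growth factors and receptors 2 of 57 (3.51%) had one, Kit with 9 tags and Fgf17, a ligand of FGF receptors, with 5. The share of unique words was 0% in the Kit peak.

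Adhesion genes had peaks near 18 of 132 names (13.6%, interval 8.80 to 20.5), against 8.78% over all gene names, at the lower edge of the interval. Ptk2, the focal adhesion kinase, had 8 tags in intron 30, Cdh4, a cadherin, had 7, Itgad, a leukocyte integrin chain, had 7 and 5, and Pecam1, an endothelial adhesion molecule, had 6. The Pecam1 peak had no 50-base word that occurs once in the genome. Lama3, a laminin chain, and Itgb1bp1, a binding partner of an integrin tail and not an integrin, had 5. The guidance list had 5 of 46 (10.9%). Sema3c, also on the list of known Twist1 targets, and Plxna2, a semaphorin receptor, had 7 tags, Sema5b had 6, Sema3d had 2 peaks of 5, and Sema6a had 5. Sema3c was the 1 of 11 known Twist1 targets with a peak. In that peak 11.9% of the 50-base words occurred once in the genome, and the median word had 12 copies. Sema3c also had a limb bud peak within 5000 bp.

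Cytoskeleton genes had peaks near 13 of 95 names (13.7%, interval 8.17 to 22.0), an interval that holds the 8.78% of all gene names. Arhgap6, a GTPase-activating protein, had 6 tags. The related proteins Arhgap20, Arhgap42 and Dlc1, the exchange factor Dock3 and the microtubule-actin linker Macf1 had 5 tags each. The median spans of these lists, 65521 bp for adhesion and 91076 bp for the cytoskeleton, were above the 25049 bp of all gene names, and the part of gene length in the counts was not tested. Among the markers of other cells in the dissected tissue, 2 of 7 endothelial names (Nfatc1 and Pecam1), 1 of 4 cardiomyocyte names (Actn2, the sarcomeric alpha-actinin, 8 tags), 0 of 3 epicardial names and 0 of 2 blood names had a peak. The 95% intervals of all these marker shares hold the 8.78% of all gene names. Limb bud peaks were near 6 of the 7 endothelial names, all 4 cardiomyocyte names, 2 of the 3 epicardial names and 1 of the 2 blood names. Of the 10 valve mesenchyme names, 1 had a limb bud peak. Over all gene names the share with a limb bud peak was 41.5%.

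The 4 gene ontology lists were made by the authors from genes near ECC peaks, so their shares are not independent of the peaks. Peaks were near 36 of 163 cell-cell signaling genes (22.1%), 28 of 121 cell adhesion genes (23.1%), 28 of 104 cell morphogenesis genes (26.9%) and 22 of 92 neurogenesis genes (23.9%). Signaling genes with many tags included Mbp, a myelin protein, and Ptk2 with 8, Drd1a, a dopamine receptor, and Pla2g6, a phospholipase, with 7, and Dlg2, a scaffold protein, with 6. For adhesion the genes with the most tags were Nid2, Ptk2 and Pvr, a nectin-like receptor, with 8, and Bmp1, Cdh4 and Radil, a Rap effector, with 7. For morphogenesis they were Syne1 with 15, Pard3, a polarity protein, with 11, Avil, an actin-binding protein, and Ank1, an ankyrin, with 9, Trpc6, a cation channel, with 8, and Wdr19, a protein of ciliary transport, with 7. For neurogenesis they included Slc4a7, a bicarbonate transporter, with 12, Col4a4 with 10, Kalrn, an exchange factor, and Lmx1a, a homeodomain factor, with 8, and Atp8a2, a lipid flippase, with 7.

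**Figure D3:**
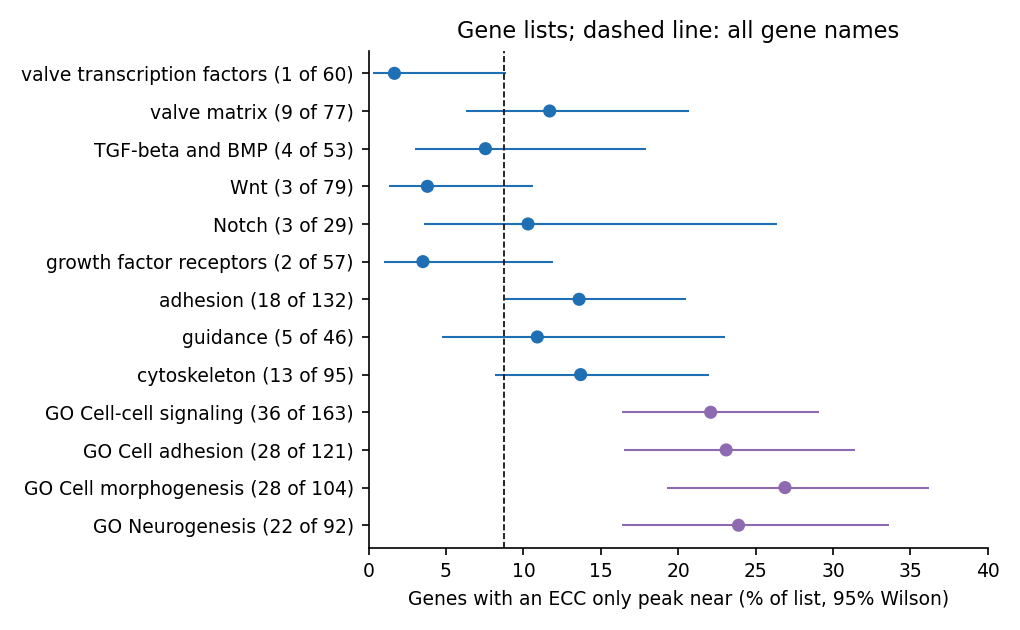
Share of the genes of each list (x axis, %, with 95% Wilson interval) that had an ECC only peak within 5000 bp; counts stand beside each name. The dashed line is the 8.78% over all gene names. Lists drawn from valve biology (blue) run from 1.67% to 13.7%, and the ontology lists made by the authors from ECC peaks (purple) from 22.1% to 26.9%.

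The ECC regions that the study took up for ChIP-qPCR were not in this set. The listed peaks of Lect1, a chondromodulin (48 tags, 1758 bp), Shroom4, an actin-binding protein (10 tags, 3897 bp), Brwd3, a bromodomain protein (15 tags, 1456 bp), and Ror2, a Wnt5a receptor (8 tags, 4444 bp), were near genes but were overlapped by a limb bud peak over 41.7%, 100%, 54.9% and 42.8% of their length. The study classed the Lect1, Shroom4 and Brwd3 regions as specific to ECCs. By ChIP-qPCR it reported Twist1 there in ECCs and in neither other tissue. The overlaps rest on the deposited limb bud list, which holds far more peaks than the study's text gives. The regions of Fzd4, Fzd8 and Sfrp1 were not overlapped but were 26862, 11219 and 15953 bp from the gene. Brwd3 did have another peak in the set, of 6 tags in intron 40 (chrX:105942717-105942887), 1905 bp from the nearest listed exon.

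Gene families were chosen after their values were seen. In a name search for dynein heavy chains of the Dnahc type, 7 of 11 names (63.6%) had a peak. The histone cluster had 11 of 40 names (27.5%), and the share over all gene names was 8.78%. Other dyneins were not searched for, and the part of gene length in these counts was not tested. The counts were 23 of 693 olfactory receptors (3.32%), 16 of 280 vomeronasal receptors (5.71%) and 17 of 258 genes named as Zfp zinc finger proteins (6.59%). Solute carriers (7.79%), genes named Trim, Rnf or Usp (8.40%), RIKEN clone names (8.12%) and predicted genes named Gm (10.2%) were nearer to the share of all names.

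Much of the peak sequence was repeated in the genome. For each peak, every word of 50 bases, the length of a read, was looked up on both strands of mm9. The median share of words that occur once was 29.7% (26.9 to 31.6), and 318 peaks (23.0%) had none. At least 50% of the words were unique in 384 peaks (27.8%, interval 25.5 to 30.2). In windows of the same length within 1000 bp on each side of the same peaks the median was 100%. The median was 8.59% in ECC only peaks farther from genes and 23.9% in near-gene shared peaks. How the authors treated reads with several matches is not given in the sources used here. The part of repeated sequence in the peak calls was not tested.

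**Figure D4:**
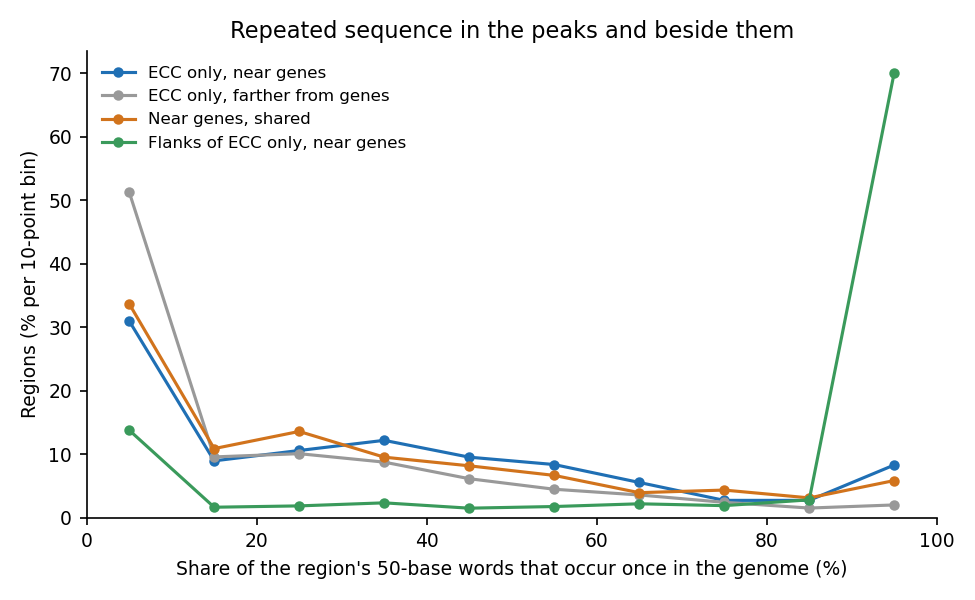
Distribution of the share of a region's 50-base words that occur once in mm9 (x axis, %) as the percentage of regions in each 10-point bin (y axis), for the ECC only peaks near genes, their flanking windows, ECC only peaks farther from genes and near-gene shared peaks. The flanks pile up at the fully unique end and the peaks at the low end, where 23.0% of the ECC only peaks near genes have no unique word.

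Some interspersed repeats and exact tandem repeats were described in more detail, but the share of peaks with a repeat of any kind was not measured. The most common 20-base word, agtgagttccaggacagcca, which belongs to the B1 short interspersed element of mouse, was in 135 of the 1382 peaks (9.77%), in 2.92% of the ECC only peaks farther from genes, in 4.09% of the near-gene shared peaks and in 0.980% of the flanking windows. With peaks that shared at least 10 words with these, the group came to 291 peaks (21.1%), of which 213 were in introns, with a median of 5 tags and a fold enrichment of 34.72. Its median share of unique words was 42.7%, against 22.3% in the 1091 other peaks. Another common word led to a group of 90 peaks with a median of 7.24% unique words, and a further one to 49 peaks with a median of 0%. The B1 group included the peaks of Notch3, Col24a1, Fbln7 and Fgf17. A peak of 7 tags beside Cd101 shows the word, in capitals on the opposite strand (chr3:100836573-100836716).
Cd101: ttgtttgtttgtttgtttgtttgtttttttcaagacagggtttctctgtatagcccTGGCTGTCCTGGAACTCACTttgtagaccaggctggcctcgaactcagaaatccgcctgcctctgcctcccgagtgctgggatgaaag

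An exact tandem repeat with a period of 1 to 60 bases, at least 2 copies and a stretch of at least 40 bases was in 298 of the 1382 peaks (21.6%, interval 19.5 to 23.8). It was in 2.83% (2.27 to 3.52) of the 2756 flanking windows of the same length, in 10.4% (9.63 to 11.2) of the ECC only peaks farther from genes and in 37.2% (33.8 to 40.8) of the near-gene shared peaks. The median share of unique words was 34.5% in peaks with such a repeat and 27.6% in those without. The median period was 27 bases and the median stretch 111 bases. At least 10 tags were counted in 64 of these 298 peaks (21.5%) and in 65 of the 1084 others (6.00%). Of the 64 peaks near genes of the valve lists, 20 held such a repeat and 13 belonged to the B1 group, Col3a1 and Cldn19, a claudin, being in both. The B1 group and the tandem repeats together came to 560 peaks (40.5%). Both searches were set up after the sequences had been seen.

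By p-value, the tandem share was higher in stronger peaks, and the E-box share was lower in the strongest class. Of the 129 peaks with at least 10 tags 51.2% held an E-box, but their median length was 312 bp, against 172 bp for all peaks of the set. This share was not adjusted for length, so it cannot be compared directly with that of all peaks. Of the 459 peaks with the weakest p-values, from 1e-06 to 1e-05, 14.4% (11.5 to 17.9) held a tandem repeat, and of the 75 with a p-value of 1e-10 or smaller 60.0% (48.7 to 70.3) did. The 75 strongest peaks were longer, with a median of 250 bp, yet 22 of them (29.3%, interval 20.2 to 40.4) held an E-box, against 55.1% (50.5 to 59.6) of the weakest. The strongest ECC only peaks farther from genes (33.3%) and near-gene shared peaks (34.9%) had shares within the same interval.

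**Figure D5:**
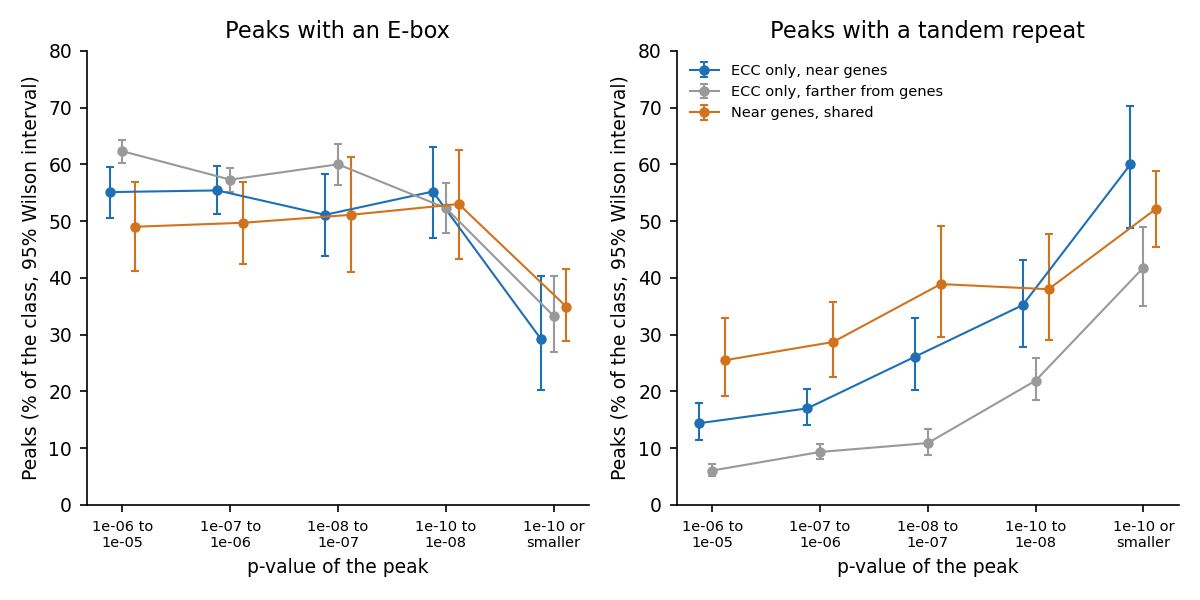
Share of peaks with an E-box (left, %) and with an exact tandem repeat (right, %) by the p-value class of the peak (x axis), for ECC only peaks near genes, ECC only peaks farther from genes and near-gene shared peaks. Error bars are 95% Wilson intervals. In the ECC only peaks near genes the tandem share goes from 14.4% to 60.0% and the E-box share from 55.1% to 29.3%.

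Over all 1382 peaks an E-box (CANNTG, a word that holds on both strands) was in 737 (53.3%, interval 50.7 to 55.9). It was in 61.0% (59.1 to 62.8) of the flanking windows of the same length, and in 58.4% of the ECC only peaks farther from genes and 46.0% of the near-gene shared peaks. The number of E-boxes per kilobase was 5.88 in the peaks and 5.59 in the windows, so that the peaks that held an E-box held more of them. Peaks with a tandem repeat held an E-box in 25.5% (20.9 to 30.7), and peaks without one in 61.0% (58.0 to 63.8), the share of the flanking windows. GC content was 53.9% in the peaks and 44.2% in the windows. Pairs of E-boxes 5 bp apart were in 10 peaks (0.724%), against 0.967% of all placed ECC peaks. The share was 1.15% in ECC only peaks farther from genes and 0.682% in near-gene shared peaks.

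By letters, counting a word and its complement as 1, CACCTG was the most frequent E-box, in 16.6% of the peaks and 13.6% of the windows, followed by CAAGTG in 13.3% of the peaks and in 289 of the 2756 windows. CAAATG was in 3.47% of the peaks and 12.9% of the windows, and CACATG and CAGATG in 9.77% each, against 13.0% and 13.2%. CAAGTG was in 119 of the 291 peaks of the B1 group (40.9%) and in 65 of the 1091 others (5.96%). The Notch3 sequence printed above carries it on the opposite strand.

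The 3 peaks just inside the distance limit, beside Adh4, an alcohol dehydrogenase, Car6, a carbonic anhydrase, and Steap1, a metalloreductase, were 4978, 4969 and 4969 bp from the gene with 9, 7 and 6 tags. Those just outside, beside Cdx4, a homeodomain factor, Nfs1, a cysteine desulfurase, and Folr2, a folate receptor, were 5005, 5009 and 5011 bp away with 6, 8 and 5 tags. Overlap left a gap: the 3 peaks with the largest overlap still inside, in introns of Ppwd1, a prolyl isomerase, Ttn, the sarcomeric protein titin, and Psg20, a pregnancy-specific glycoprotein, had 3.91%, 3.73% and 3.52% of their length in a limb bud peak and 7, 6 and 7 tags, and the 3 just outside, beside Lypla1, a thioesterase, Tmem45a and 1190002N15Rik, had 10.8%, 11.1% and 11.1% and 7, 13 and 5 tags. In all, 6 peaks of the set touched a limb bud peak, by at most 9 bases, and none touched a PNST peak.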

How the data were processed

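Twist1 ChIP-seq was analysed from the peak lists that the authors deposited for ECCs at E12.5, for limb buds at E10.5 and for the PNST cell line, 1 sample each. The authors mapped 50 bp reads to mm9 with Bowtie, per the labels, and the methods name the Illumina aligner Eland as well. They ran MACS 1.4.2 separately on every sample, with its band width set to 300 bp and p-values up to 1e-05 kept, per the file headers. The deposited tag values are counts of reads after at most 1 was kept per position, not normalized for depth. The deposited score is 10 times the −log10 of the MACS p-value, so 50 stands for 1e-05. The deposited fold enrichment is a ratio to the local background made by the authors with MACS. The headers name no control file, whereas the methods name FVB/N genomic DNA. Other deposited columns are summit positions and gene distances in bp.

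The set of peaks and the gene lists were chosen with earlier results of these data known. No test was made, since each tissue had 1 sample. Medians have 95% binomial order-statistic intervals and shares 95% Wilson intervals, which cover counting error only. Sequences and 50-base word copies came from the mm9 genome, and summits were placed in GENCODE vM1 protein-coding transcripts, with the longest transcript for intron numbers. Words were counted from each base of a peak, the last ones running past its end. Flanking windows had the length of the peak and their outer edge 1000 bp from it, and were taken for peaks of up to 1000 bp. Of the 1284 gene names, 1254 were found in GENCODE vM1.

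Genes named in the text followed a rule: the 10 peaks with the most tags, the 10 with the highest fold enrichment, genes with at least 4 peaks, genes tested by ChIP-qPCR, the genes of the valve lists (up to 6 with the most tags for adhesion, guidance, cytoskeleton and ontology lists), the 10 summits nearest a start site, and the 3 peaks on each side of the distance and overlap limits. Names outside it, chosen after their values were seen, are Itih5, Cd101, Cldn19, Ccbe1, Zeb2 and the gene families. A few genes that the rule names are not reported here. Overlap and median code was tested on simulated peaks. Python 3.11.15, numpy 2.4.6, pandas 2.3.3 and scipy 1.17.1 were used.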

Additional observations from a re-analysis of the deposited data

How the results depend on the processing

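The set of 1382 peaks, with 1284 genes and 60 list genes, became 1376, 1507 or 1158 peaks when an overlap of 1 base, one of 50% or a limb bud or PNST peak within 1000 bp counted as shared, and 1355 when neighboring peaks were counted once. List genes then numbered 50 to 68. The median stayed at 5 tags and a fold enrichment of 28.2 in these 4 settings. A distance of at most 1000 bp left 482 peaks, 453 genes and 17 list genes, and one of at most 10000 bp gave 2081, 1931 and 96. With a p-value of 1e-10 or smaller for ECC peaks, 75 peaks, 76 genes and 2 list genes were left, the medians were 10 tags, 250 bp and a fold enrichment of 37.04, and 29.3% held an E-box. With at least 10 tags there were 129 peaks, 112 genes and 4 list genes, with medians of 12 tags, 312 bp and 17.16. Of these peaks 51.2% held an E-box. They were longer than the full set, with its median of 172 bp, and the share was not adjusted for length. It therefore does not show whether the lower E-box share holds when strength is taken by tags. An E-box was within 50 bp of the summit in 38.1% of peaks and in 90.7% of peaks extended by 200 bp on each side. The share in introns was 65.3% with all transcripts and 65.9% by peak centre. In alternatives added after seeing the data, peaks with at least 50% unique words numbered 384, with 387 genes, 17 list genes and medians of 168 bp and 30.23. With a start site within 5000 bp in place of the listed distance there were 602 peaks, a median fold enrichment of 27.61 and 41.2% in introns. The distance, p-value, tag, unique word and start site settings change the peak set by construction, and the E-box settings the length searched. No paired analysis was possible because each tissue has 1 sample.

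Of the 1382 peaks, 719 rest on 5 tags in the library that is the shallowest of the 3 by the file headers, without replicates and without an input control in the file headers, and 23.0% of the 1382 have no 50-base word that occurs once in mm9. Neither the reads nor the control were analysed here.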
